A study of Homo sapiens with 12 samples.

Results

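The T-box genes TBX2, TBX3 and TBX20, the homeobox gene NKX6-3 and the paired-type homeobox gene PHOX2A were followed through 12 RNA-seq libraries of human motor neuron cultures exposed to the pesticide cis-chlordane. They are 5 of the 28278 genes in the count table. They were chosen by measured values, since TBX2, TBX3, TBX20 and NKX6-3 had among the largest falls in treated GFP-positive cells, and PHOX2A was added to them. All values in GFP-positive cells are therefore given as a description, without a test, and the GFP-negative libraries supply the only treatment comparison of these genes that the choice did not use.

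Cultures were made from the WA09-Islet1-GFP line of human embryonic stem cells, labelled wild-type, in which a GFP reporter follows the transcription factor Islet1 (ISL1). After motor neuron differentiation the cells received cis-chlordane, an organochlorine of the cyclodiene type, or the DMSO vehicle for 16 hours, and were then separated by FACS on GFP. The 4 groups, each with 3 libraries, were control GFP-positive, treated GFP-positive, control GFP-negative and treated GFP-negative cells. The dose was 10 µM in the sample labels and 16 µM in the description of methods, and since titles of treated samples carry the word untreated as well, the treatment entry decided the group. A replicate was an independent thaw of frozen cells of this single line, so the spread between libraries does not cover differences between lines.

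T-box proteins bind DNA through a shared domain that recognises a GGTGTG core. TBX2 and TBX3 act mostly as repressors and are known for holding down cell cycle inhibitors such as CDKN1A, while TBX20 is known from the heart and from cranial motor neurons, where it takes part in their migration together with planar cell polarity genes. NKX6-3 belongs to the NKX6 homeodomain family, whose relatives NKX6-1 and NKX6-2 pattern the ventral neural tube, and it is best known from the stomach. PHOX2A is a selector gene of visceral and branchial motor neurons and of noradrenergic neurons. ISL1 is shared by somatic and visceral motor neurons.

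The proximal promoters of TBX20 and PHOX2A are shown because both genes are members that were far lower in treated GFP-positive cells, so that their elements can be set against all promoters. The set of RefSeq (GRCh38.p14) promoters used here held an entry for 2 of the 5 genes. Each sequence is the 250 bases before the transcription start, 5′ to 3′ on the strand of the gene, at chr7:35254101-35254350 (minus strand) for TBX20 and chr11:72244177-72244426 (minus strand) for PHOX2A. Capitals mark matches, on either strand, to the cAMP response element core TGACG, the homeodomain core TAAT, the T-box core GGTGTG and the CCAAT box.
TBX20 promoter: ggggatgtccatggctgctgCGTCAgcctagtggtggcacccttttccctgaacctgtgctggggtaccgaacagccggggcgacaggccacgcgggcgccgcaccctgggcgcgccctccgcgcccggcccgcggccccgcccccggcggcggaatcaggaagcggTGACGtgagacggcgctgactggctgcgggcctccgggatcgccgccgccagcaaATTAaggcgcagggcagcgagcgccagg
PHOX2A promoter: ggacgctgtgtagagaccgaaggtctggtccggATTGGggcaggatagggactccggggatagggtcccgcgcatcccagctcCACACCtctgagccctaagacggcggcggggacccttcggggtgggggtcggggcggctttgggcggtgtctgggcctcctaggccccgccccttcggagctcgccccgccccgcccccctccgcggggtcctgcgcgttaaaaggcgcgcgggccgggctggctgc
Both were rich in G and C, at 74% for TBX20 and 73.2% for PHOX2A against a median of 58% over all promoters. The TBX20 window held 2 matches to TGACG, at 230 and 83 bases before the start, and this motif occurs in 21.2% of the 35116 promoters. It also held 1 match to TAAT, which occurs in 47.4%. The PHOX2A window held 1 match to GGTGTG, found in 14.2% of promoters, and 1 to CCAAT, found in 32%. The GC box GGGCGG matched at 1 place in TBX20 and at 5 in PHOX2A and occurs in 42.6% of promoters; it is not capitalised. The TATA box TATAAA had 0 matches in either window and occurs in 10.7% of promoters. The E-box CANNTG also had 0 matches and occurs in 61.8%. The longer T-box site GGTGTGA, which contains the core, the homeodomain palindrome, which contains TAAT, and the CHOP and ATF4 composite element likewise had 0 matches, against 2.76%, 4.35% and 3.14% of promoters. The PHOX2A window lies in an intron of a longer annotated PHOX2A transcript. TBX2, TBX3 and NKX6-3 had no entry in the promoter set used here, which does not mean that RefSeq lacks them.

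Depth ran from 23414935 to 38347050 assigned counts per library, with a median of 31553596. Levels are CPM, a gene's counts relative to the library total, after TMM scaling over all 12 libraries. The 4 groups separated on the first and second principal components, by sort fraction and by treatment, which held 41.6% and 33.7% of the variance. Control GFP-negative replicate 3 lay away from its group on the third component (7.49%). Values without it are given below for the tests of the members and of some other genes, not for every test. The 6 motor neuron markers, among them ISL1, MNX1, CHAT and the vesicular acetylcholine transporter SLC18A3, summed to 1710 to 1910 CPM in control GFP-positive libraries and to 291 to 336 CPM in control GFP-negative libraries. In control GFP-positive cells MNX1, a factor of spinal somatic motor neurons, stood at 11.4 ± 2.28 CPM (SD, n = 3).

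TBX2 was the T-box member with the highest level. On chromosome 17 (hg38, 61399843 to 61409466, plus strand), it gave 51.3, 57.5 and 51.6 CPM in the control GFP-positive replicates. The treated GFP-positive replicates gave 0.93, 1.29 and 1.59 CPM, from 31, 45 and 60 counts. No treated library came near a control library (30.6% of all genes tested in this fraction were lower without overlap), and the mean went from 53.5 ± 3.49 to 1.27 ± 0.330 CPM (SD, n = 3 each), so that 2.37% of the control level remained. In GFP-negative cells, control replicates stood at 5.25, 4.17 and 4.91 CPM and treated replicates at 2.29, 2.80 and 1.80 CPM. These groups also did not overlap, as was so for 22.6% of all genes tested in this fraction in the lower direction, and the mean in treated libraries was 48.1% of that in controls.

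TBX3, on chromosome 12 (114670255 to 114684175, minus strand), was lower throughout. Control GFP-positive replicates gave 6.41, 8.60 and 8.54 CPM and treated ones 0.27, 0.143 and 0.265 CPM. The groups were far apart, with 2.88% of the control mean left, although the treated values rest on only 9, 5 and 10 counts. The GFP-negative control replicates held 17, 23 and 3 counts (0.558, 0.675 and 0.12 CPM) and the treated ones 4, 3 and 20 counts (0.173, 0.109 and 0.708 CPM). Here the groups overlapped, and 1 treated library was the highest of all 6.

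TBX20, on chromosome 7 (35202430 to 35254100, minus strand), varied most among control GFP-positive replicates, at 5.41, 12.4 and 10.3 CPM. The treated GFP-positive replicates gave 2, 6 and 18 counts, or 0.06, 0.172 and 0.477 CPM, and 2.52% of the control mean remained. All treated values lay below all controls by a wide margin. In GFP-negative cells the control replicates held 0, 13 and 22 counts (0, 0.382 and 0.879 CPM). The 3 treated GFP-negative libraries had 0 counts. Since 1 control library was also at 0, the groups touched. Against a floor of 3 counts per library, the treated GFP-negative mean was at least 3.66-fold lower than the control mean of 0.420 ± 0.441 CPM (SD, n = 3), and at least 1.66-fold lower without control replicate 3.

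NKX6-3, on chromosome 8 (41645177 to 41650817, minus strand), showed another distribution. Control GFP-positive replicates gave 3.76, 2.64 and 3.58 CPM, and treated ones kept 1, 4 and 1 counts (0.03, 0.114 and 0.0265 CPM). Thus 1.71% of the control mean remained. Control GFP-negative replicates stood higher, at 11.8, 8.04 and 7.11 CPM, and treated GFP-negative replicates fell to 1, 5 and 5 counts (0.0432, 0.182 and 0.177 CPM). In both fractions the treated libraries were far below the controls. In pooled counts, treated cells held 1.72% of the depth-adjusted control level in the GFP-positive fraction, given as a description. In the GFP-negative fraction they held 1.54% (95% exact interval 0.764 to 2.76%). This interval covers counting error only, not the spread between libraries.

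PHOX2A, on chromosome 11 (72239077 to 72245664, minus strand), was by far the most abundant member. Its control GFP-positive replicates stood at 595, 664 and 463 CPM and its treated ones at 53.9, 86.0 and 47.3 CPM. The mean went from 574 ± 102 to 62.4 ± 20.7 CPM (SD, n = 3 each), which left 10.9% of the control level and no overlap. Control GFP-negative replicates gave 189, 189 and 153 CPM and treated ones 19.9, 24.6 and 23.4 CPM. There too the groups were far apart, and 12.8% of the control level remained.

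**Figure D1:**
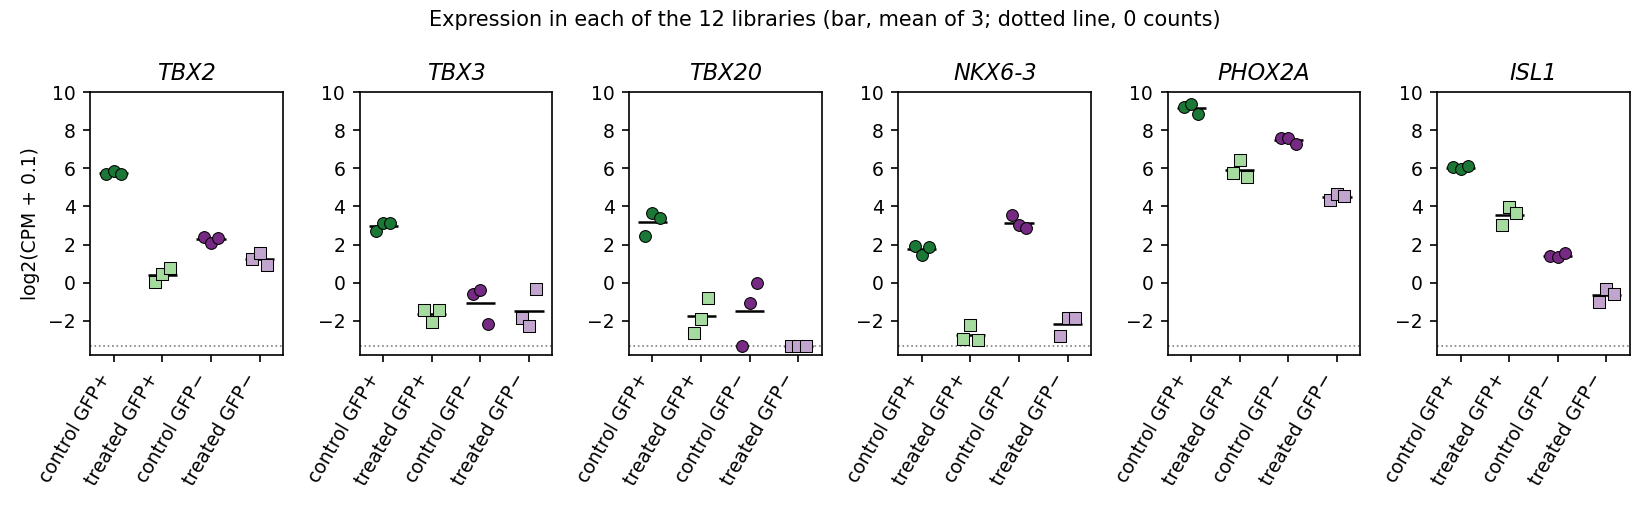
Level of each member and of ISL1 in the 12 libraries, on a log2(CPM + 0.1) scale. Points are single libraries, bars are means of 3 and the dotted line is 0 counts. TBX2, TBX3 and TBX20 are highest in control GFP-positive libraries, NKX6-3 is highest in control GFP-negative libraries at 7.11 to 11.8 CPM, and PHOX2A is higher in GFP-positive than in GFP-negative libraries with and without treatment.

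In treated against control GFP-positive cells the edgeR log2 fold changes were −5.32 (SE 0.24) for TBX2, −5.03 (0.35) for TBX3, −5.18 (0.41) for TBX20, −5.72 (0.51) for NKX6-3 and −3.14 (0.20) for PHOX2A. These values chose the genes. Left-out libraries moved TBX20 to −6.21 (without treated replicate 3) and NKX6-3 to −6.65 (without treated replicate 2), where few counts remain. Among the 1428 genes that fell and averaged at least 1 CPM over these 6 libraries, NKX6-3, TBX2, TBX20 and TBX3 ranked 1, 2, 3 and 5. PLA2G3 stood between TBX20 and TBX3 at −5.05, and BRINP3 was next after TBX3 at −4.79. PHOX2A ranked 51. Of all 15333 genes tested in this fraction 11.2% were lower DEGs (adjusted p below 0.05 together with a minimum fold of 2), and 12.8% were higher DEGs; nothing is read from the members' count against this share. ISL1 itself, the gene the reporter follows and no member, had 65.7 ± 3.12 CPM in control and 12.0 ± 3.71 CPM in treated libraries (SD, n = 3 each), and fell by 2.38 on the log2 scale (SE 0.20, edgeR adjusted p = 6.02e-12). In these bulk libraries, fewer cells of a type and less RNA per cell cannot be told apart.

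The GFP-negative libraries asked whether the members also moved outside the cells used to choose them. These cells were sorted from the same cultures, so they are no independent experiment. Their control libraries still held motor neuron markers, at 291 to 336 CPM in sum. NKX6-3 fell by 6.01 on the log2 scale (SE 0.47, edgeR adjusted p = 3.66e-05) and PHOX2A by 2.99 (SE 0.17, adjusted p = 1.07e-05). TBX2 fell by 1.07 (SE 0.29, adjusted p = 0.0198), just past the minimum fold. TBX3 had a log2 fold change of −0.48 (SE 0.78, adjusted p = 0.675), less than the spread between replicates. TBX20 was too low for the count filter and was not tested. The lower DEGs made up 9.75% and the higher DEGs 8.59% of the 15513 genes tested in this fraction, against 3 of the 4 members that passed the filter, of which NKX6-3 passed only through its control libraries.

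The calls of TBX2, NKX6-3 and PHOX2A differed in how far they rested on single libraries. Without control GFP-negative replicate 3, the values were −1.06 for TBX2 (adjusted p = 0.0212), −6.14 for NKX6-3, −3.08 for PHOX2A and −0.90 for TBX3 (adjusted p = 0.349). TBX3 ranged from −1.70 without treated replicate 3 (adjusted p = 0.208), which holds 20 of its 27 treated counts, to −0.057 without treated replicate 2. The TBX2 call was lost in 4 of 6 fits with 1 library left out: without control replicate 1 it stood at −0.998 (adjusted p = 0.0394), without control replicate 2 at −1.16 (0.0539), without treated replicate 1 at −1.09 (0.0809) and without treated replicate 3 at −0.94 (0.067). NKX6-3 kept its call at −6.26 to −5.65 and PHOX2A at −3.08 to −2.91. For TBX20, fits that did include the gene gave adjusted p-values from 0.00492 to 0.135, with fold changes set by the zero counts of the treated libraries.

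**Figure D2:**
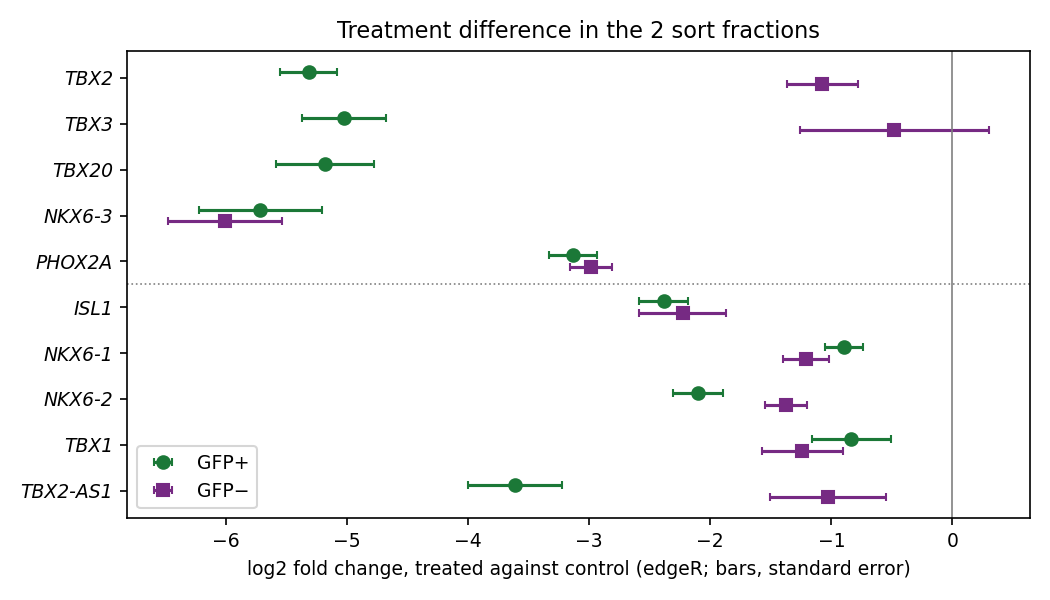
Treatment difference (edgeR log2 fold change, treated against control) in GFP-positive (circles) and GFP-negative (squares) cells, with SE bars, for members above the dotted line and related genes below it. NKX6-3 and PHOX2A sit at like values in both fractions (−5.72 and −6.01; −3.14 and −2.99), while TBX2 sits at −5.32 and −1.07; TBX20 was not tested in GFP-negative cells and has no square. For the members the GFP-positive values are those that chose them.

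The members fell into different classes by sort fraction before treatment. In controls the GFP-positive mean exceeded the GFP-negative mean 22.3-fold for TBX20, 17.4-fold for TBX3, 11.2-fold for TBX2 and 3.24-fold for PHOX2A, without overlap for any of them. The TBX20 fold rested on few GFP-negative counts and was 14.9-fold without control GFP-negative replicate 1 and 49.1-fold without replicate 3. Of all genes tested, 29.1% were higher and 24.1% lower in the GFP-positive controls without overlap. NKX6-3 went the other way and was 2.70-fold higher in GFP-negative controls, again without overlap. Its level thus went against the label of a motor neuron factor in these cultures. ISL1 was 25.6-fold higher in the GFP-positive controls. Since the control GFP-positive libraries entered the choice, these folds carry no test; 7.47% of 15404 genes were higher and 15.3% lower DEGs in that fraction.

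After treatment the order of the fractions changed for TBX2. It was 1.81-fold higher in the treated GFP-negative than in the treated GFP-positive libraries, without overlap. Of 16226 genes, 29.2% were lower and 27.2% higher in treated GFP-positive libraries without overlap. TBX3 means were 0.226 ± 0.0718 CPM in treated GFP-positive and 0.330 ± 0.329 CPM in treated GFP-negative libraries (SD, n = 3 each), with overlap, and the GFP-negative mean was 0.141 CPM without replicate 3. TBX20 kept 2 to 18 counts per library in treated GFP-positive cells and 0 in treated GFP-negative cells. PHOX2A stayed 2.76-fold and ISL1 21.9-fold higher in the treated GFP-positive cells, and the NKX6-3 mean was 2.35-fold lower there, with overlapping groups and at most 5 counts per library. Over all genes, the treatment response differed between the fractions at an adjusted p below 0.05 for 2.19% of 16226 genes (157 higher and 198 lower), and for 519 higher and 745 lower with a block for the culture that same-numbered fractions share. No such test is given for the members.

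**Figure D3:**
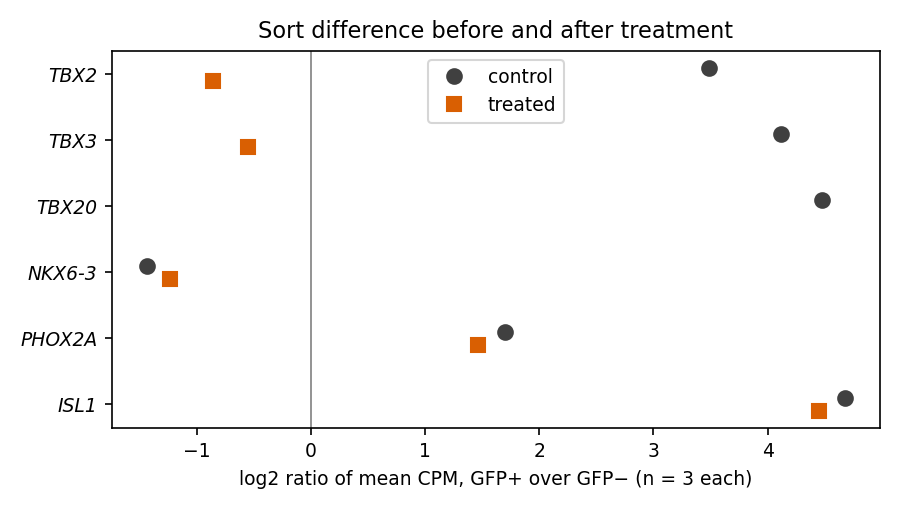
Log2 ratio of the mean CPM of GFP-positive over GFP-negative libraries (n = 3 each), in controls (circles) and treated cells (squares). TBX2 crosses from the right of the zero line to the left, TBX3 does so through 1 treated GFP-negative library (1.60-fold higher in GFP-positive cells without it), and PHOX2A and ISL1 keep most of their ratio (3.24- and 2.76-fold; 25.6- and 21.9-fold); TBX20 has no treated square because its treated GFP-negative libraries hold 0 counts.

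Levels of different genes were compared per kilobase of the canonical transcript. In control GFP-positive cells PHOX2A led at 338 ± 60.2 CPM per kilobase, then TBX2 at 15.6 ± 1.02, TBX20 at 5.14 ± 1.96, TBX3 at 1.66 ± 0.26 and NKX6-3 at 1.39 ± 0.25 (SD, n = 3). The last pair did not differ beyond their spread. In control GFP-negative cells the order on the same scale was PHOX2A (104 ± 12.1), NKX6-3 (3.76 ± 1.04), TBX2 (1.39 ± 0.162), TBX20 (0.230 ± 0.242) and TBX3 (0.0953 ± 0.0619), where TBX20 and TBX3 overlapped. In treated cells PHOX2A stayed first, at 36.7 ± 12.2 CPM per kilobase in GFP-positive and 13.3 ± 1.44 in GFP-negative cells. TBX2 was next at 0.370 ± 0.0961 and 0.669 ± 0.145, and the levels of TBX3, TBX20 and NKX6-3, all at or under 0.130 on this scale, did not form an order beyond their spread, apart from TBX20 at 0 in GFP-negative cells.

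Of the close relatives looked at in the NKX6 and T-box families, NKX6-1, NKX6-2 and TBX1 had enough counts to be tested. NKX6-2 fell by 2.10 on the log2 scale in GFP-positive cells (239 ± 35.4 to 53.0 ± 22.4 CPM, SD, n = 3 each, edgeR adjusted p = 1.54e-10) and by 1.37 in GFP-negative cells (adjusted p = 4.21e-04). NKX6-1 had a log2 fold change of −0.89 in GFP-positive cells (328 ± 24.95 to 168 ± 8.87 CPM), under the minimum fold, and fell by 1.21 in GFP-negative cells (adjusted p = 0.00136). TBX1, a T-box gene of the pharyngeal arches, fell by 1.24 in GFP-negative cells (adjusted p = 0.0189), a call lost when control replicate 2 or either of treated replicates 1 and 3 was left out (adjusted p up to 0.0871), and had a log2 fold change of −0.83 in GFP-positive cells. TBX4, TBX5 and TBX18 averaged 0.0957 CPM or less in every group and were not tested.

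Among genes next to the members on the chromosome, TBX2-AS1 and ANK1 were DEGs. TBX2-AS1, a long non-coding RNA on the opposite strand that spans TBX2, went from 4.03, 3.16 and 3.52 CPM in control to 0.27, 0.372 and 0.185 CPM in treated GFP-positive libraries, a fall of 3.61 (SE 0.39, edgeR adjusted p = 1.35e-09). In GFP-negative cells its log2 fold change was −1.03 (SE 0.48, adjusted p = 0.131). The library kit keeps strand, but the strand setting of the counting is not given in the sources used here, so reads of TBX2 and TBX2-AS1 may not be told apart. INPPL1, whose end overlaps that of PHOX2A, had log2 fold changes of −0.62 (adjusted p = 0.00249) and 0.26 (0.22) in GFP-positive and GFP-negative cells. ANK1 lies 2.4 kb from NKX6-3; its log2 fold change was −0.62 in GFP-positive cells, and it fell by 1.33 in GFP-negative cells (adjusted p = 0.00302). BCAS3, MED13L, DPY19L1, HERPUD2, GPAT4 and CLPB were no DEGs in either fraction, with log2 fold changes between −0.30 and 0.49, and FOLR2 averaged at most 0.0533 CPM in any group.

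The visceral and autonomic genes that go with PHOX2A mostly fell in both fractions. Of 16 tested list genes other than PHOX2A, 12 were lower DEGs and 0 higher DEGs in GFP-positive cells, with a median log2 fold change of −1.60 against 0.03 over all genes. In GFP-negative cells 13 of 16 were lower DEGs and 0 higher DEGs, with a median of −1.41 against −0.01. Over all genes tested, 11.2% were lower and 12.8% higher DEGs in GFP-positive cells, and 9.75% and 8.59% in GFP-negative cells. This list and those below were chosen with earlier results of these data known. DBH, the enzyme that makes noradrenaline, went from 99.2 ± 18.6 to 19.2 ± 6.14 CPM (SD, n = 3 each) in GFP-positive cells, a fall of 2.30, and fell by 1.90 in GFP-negative cells. The ganglionic nicotinic receptor subunits CHRNA3 and CHRNB4 fell by 2.23 and 1.98 in GFP-positive cells and by 2.20 and 1.68 in GFP-negative cells. TH, which catalyses the first step of noradrenaline synthesis, and INSM1 were no DEGs in either fraction, at −0.56 and −0.01 in GFP-positive cells and −0.04 and 0.06 in GFP-negative cells. HAND2, a sympathetic neuron factor, averaged at most 0.239 CPM in any group and was not tested.

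Some factors of spinal motor neurons fell as well. Lower DEGs made up 11.2% of all genes tested in GFP-positive and 9.75% in GFP-negative cells. In GFP-positive cells 7 of 19 tested were lower DEGs and 0 higher DEGs, with a median of −0.77, and in GFP-negative cells 9 of 19 were lower DEGs and 0 higher DEGs, with a median of −1.06. ONECUT3 fell by 2.43 and 2.54 in the respective fractions, the LIM factor LHX4 by 2.43 and 1.88, and EBF1 by 2.04 and 2.10. MNX1 fell by 1.28 in GFP-positive cells, while its log2 fold change in GFP-negative cells was 0.13 (edgeR adjusted p = 0.752).

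The lists of other T-box and NKX genes held few tested genes. In GFP-positive cells 2 of 6 tested T-box genes were higher DEGs, TBX15 at 1.27 and TBX19 at 1.17, and 0 were lower DEGs; TBX19 lost its call in DESeq2, with no filter and in every fit with 1 library left out. In GFP-negative cells TBX21 and TBX1 were the 2 lower DEGs of 6. The shares of all genes were 11.2% lower and 12.8% higher DEGs in GFP-positive cells, and 9.75% and 8.59% in GFP-negative cells. TBX21 stood at −2.97, with controls of 0.591, 0.44 and 3.52 CPM, and at −1.45 (edgeR adjusted p = 0.0797) without control replicate 3, and its adjusted p was also above 0.05 without any of the treated replicates (up to 0.0953). Of the NKX genes, NKX6-2 was the 1 lower DEG of 6 in GFP-positive cells, and NKX1-2, NKX2-2, NKX6-2 and NKX6-1 were the 4 lower DEGs of 8 in GFP-negative cells. The count filter removed NKX1-2 in GFP-positive cells, where it stood at −5.56 without the filter (edgeR adjusted p = 0.00703). NKX2-2, a ventral progenitor factor, went from 60.6 ± 7.92 to 18.2 ± 4.10 CPM in GFP-negative cells (SD, n = 3 each). TBX19, TBX21, NKX1-2 and NKX2-2 were named after their values were seen.

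Genes that the literature describes as repressed by TBX2 or TBX3 were higher in part. Higher DEGs made up 12.8% of all genes tested in GFP-positive and 8.59% in GFP-negative cells, and lower DEGs 11.2% and 9.75%. Of 8 tested in GFP-positive cells 3 were higher DEGs and 0 lower DEGs, with a median of 0.76, and of 10 in GFP-negative cells 3 were higher DEGs and 1 was a lower DEG, with a median of 0.31. CDKN1A, the cell cycle inhibitor p21, rose from 25.3 ± 4.62 to 81.7 ± 8.51 CPM in GFP-positive cells (log2 1.76) and from 78.9 ± 16.0 to 174 ± 16.4 CPM in GFP-negative cells (log2 1.12, SD, n = 3 each), where its value without control replicate 3 was 0.97, under the minimum fold. NDRG1, a stress- and growth-related gene, rose by 1.53 and 1.96, and the cell cycle inhibitor CDKN2B by 1.34 in GFP-positive cells. GJA5, a gap junction gene of the cardiac conduction system, rose by 2.17 in GFP-negative cells at levels under 1 CPM, and CDKN2A, another cell cycle inhibitor, fell by 1.59 there. The call of GJA5 was lost without control replicate 2 or treated replicate 1 (adjusted p up to 0.0647), and that of CDKN2A without any library but control replicate 3 (up to 0.111). The count filter removed both genes in GFP-positive cells. Without the filter GJA5 rose there by 5.06 (edgeR adjusted p = 1.57e-05) and CDKN2A stood at −1.66 (0.11). Both genes were named after their values were seen. The part of TBX2 or TBX3 in these values was not tested.

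Planar cell polarity genes, the pathway linked to TBX20 in migrating cranial motor neurons, were mostly below the minimum fold. Among all genes tested, 11.2% were lower and 12.8% higher DEGs in GFP-positive cells, and 9.75% and 8.59% in GFP-negative cells. In GFP-positive cells 6 of 22 were lower DEGs and 1 was a higher DEG, with a median of −0.48, and with scaling by library size alone 3 were lower DEGs. CELSR2, a cadherin of this pathway, fell by 1.51 in GFP-positive cells and by 1.42 in GFP-negative cells. The receptor ROR2 and the cytoplasmic component PRICKLE2 fell by 1.38 and 1.36 in GFP-positive cells. The scaffold SCRIB had a log2 fold change of −1.08 with overlapping groups, was no DEG in DESeq2 (adjusted p = 0.21) and lost its call when control replicate 2 (−0.62) was left out, and likewise for treated replicates 2 (−0.77) and 3 (−0.996). The ligand WNT11 rose by 2.74, from 0.210 to 1.37 CPM. In GFP-negative cells 4 of 22 were lower and 0 higher DEGs, the lower ones being CELSR2 and, named after their values were seen, the ligands WNT5B and WNT5A and the receptor FZD7. WNT5B was under the minimum fold without control replicate 1 (−0.89). WNT5A was so without control replicate 3 (−0.87), and its adjusted p was 0.0693 and 0.0548 without treated replicates 1 and 3.

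The BMP pathway, which sets dorsal fates and regulates several T-box genes, held single DEGs in both directions. In GFP-positive cells 5 of 25 were lower DEGs and 3 higher DEGs, with a median of −0.05. Of all genes tested there, 11.2% were lower and 12.8% higher DEGs. In GFP-negative cells 6 of 26 were lower and 2 higher DEGs, beside 9.75% and 8.59% of all genes. The counts of higher DEGs were thus near the share of all genes in both fractions. ID3, a target of BMP signalling, went from 20.7 ± 2.32 to 2.49 ± 1.11 CPM in GFP-positive cells (log2 −2.99) and fell by 3.12 in GFP-negative cells. SMAD6, an inhibitor of the pathway and itself a target, fell by 4.09 (5.23 without treated replicate 2) and 3.22, and was named after its values were seen. The ligand BMP7 fell by 1.21 and 1.65, and ID4 by 1.18 in GFP-positive cells. The receptor ACVR1 rose by 1.59 and 1.69. BMP6 rose by 2.94 in GFP-negative cells; in GFP-positive cells BMP6 (1.61) and MSX1 (1.14) were called with overlapping groups. The BMP6 call was lost without control replicate 2 or treated replicate 1 (adjusted p up to 0.116), and the MSX1 call without control replicate 2 or 3 or treated replicate 1 (up to 0.0764).

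**Figure D4:**
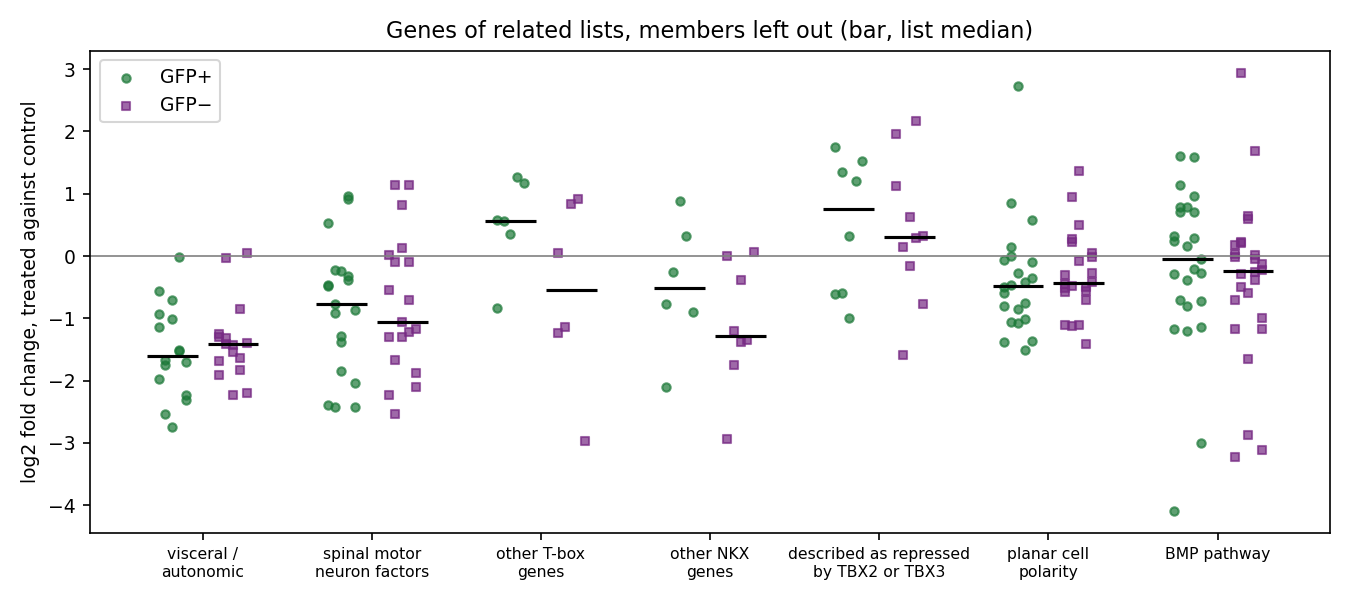
EdgeR log2 fold change, treated against control, of the tested genes of 7 lists with the members left out, in GFP-positive (circles) and GFP-negative (squares) cells; bars are list medians. The visceral and autonomic list sits lowest, with medians of −1.60 and −1.41, while the genes described as repressed by TBX2 or TBX3 have medians of 0.76 and 0.31.

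Likeness to the members was measured over the 12 libraries as the root mean square (RMS) difference of log2(CPM + 0.1), each gene taken relative to its control GFP-positive mean, among 13335 genes of at least 1 CPM there. For TBX2 the nearest genes were NRXN3, a presynaptic adhesion gene (RMS difference 1.00), FGF10 (1.01) and EDN3 (1.02), a pair of secreted ligands. TBX3 had FGF10 (1.02), PRLHR (1.07) and FSTL5 (1.12), and TBX20 had SIAH3 (0.93), HTR3B (1.41) and LRRC4C (1.45). SIAH3 went from 53.5 ± 1.34 to 2.05 ± 0.928 CPM (SD, n = 3 each) in GFP-positive cells and from 1.78 to 0.190 CPM in GFP-negative cells. NKX6-3 lay nearest to PLA2G3, a secreted phospholipase (0.672), BTBD17 (0.896) and SOX14, a factor of ventral interneurons (0.938). PLA2G3 shared its higher level in GFP-negative controls, at 5.64 ± 1.70 against 2.09 ± 0.227 CPM. PHOX2A had the closest neighbours of all, B3GAT2 (0.339), MAFA (0.347) and SLITRK5 (0.352). With a pseudocount of 1 in place of 0.1, 2 of the 3 neighbours of PHOX2A stayed among the nearest 3. Each other member kept 1 of 3. Those kept were NRXN3 for TBX2, FSTL5 for TBX3, HTR3B for TBX20, PLA2G3 for NKX6-3, and B3GAT2 and SLITRK5 for PHOX2A. SIAH3, the nearest gene to TBX20 with a pseudocount of 0.1, was not kept. Among the members themselves TBX2 and TBX3 were the closest pair (0.858) and TBX20 and NKX6-3 the farthest (3.44).

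Marker lists of the cell types that the fractions could hold differed with sort and treatment. Their calls stand beside 11.2% lower and 12.8% higher DEGs of all genes in GFP-positive cells, and 9.75% and 8.59% in GFP-negative cells. The summed motor neuron markers were 506 to 697 CPM in treated GFP-positive and 101 to 135 CPM in treated GFP-negative libraries, and all 6 were lower DEGs in GFP-positive cells and 5 of 6 in GFP-negative cells. Cycling cell markers summed to 80.0 to 112 CPM in control and 39.3 to 43.4 CPM in treated GFP-positive libraries, and to 793 to 844 and 248 to 299 CPM in GFP-negative ones; 3 and 5 of 5 were lower DEGs. Progenitor markers summed to 2870 to 3250 and 2350 to 3160 CPM in GFP-positive libraries, and to 5910 to 7850 and 7230 to 8270 CPM in GFP-negative libraries, with HES5 at 3 counts or fewer in every library. The GFP-negative sums came mostly from VIM, at 3860 and 6420 CPM, while 3 of 7 tested markers (NKX2-2, HES1 and NES) were lower and 0 higher DEGs there, with a median of −0.71. Of these 7, 1 was a lower and 1 a higher DEG in GFP-positive libraries. Sensory neuron markers summed to 84.5 to 96.5 CPM in control and 12.4 to 17.9 CPM in treated GFP-positive libraries, with 4 of 5 tested as lower DEGs; their sums were 34.9 to 42.0 and 25.7 to 28.0 CPM in GFP-negative libraries. DRGX, a homeobox gene of that list named after its values were seen, went from 35.7 ± 0.674 to 2.09 ± 1.24 CPM (SD, n = 3 each) in GFP-positive cells. Floor plate markers summed to 8.24 to 9.50 and 1.71 to 2.36 CPM in GFP-positive and 26.4 to 59.3 and 11.3 to 22.6 CPM in GFP-negative libraries, and all tested ones were lower DEGs in both fractions. Mesenchyme markers, led by the collagens COL1A1 and COL1A2, summed to 245 to 308 and 48.9 to 78.5 CPM in GFP-positive and 736 to 855 and 462 to 743 CPM in GFP-negative libraries. The part of these shifts in the members' values was not tested. For the cardiac list, to which TBX2, TBX3 and TBX20 are often tied, sums were 16.2 to 26.5 CPM in every group and came mostly from NKX2-5, with MYH6 and NPPA at 3 counts or fewer in every library. Pluripotent cell markers summed to 219 to 246 CPM in control and 72.8 to 93.5 CPM in treated GFP-positive libraries, and to 291 to 335 and 132 to 198 CPM in GFP-negative ones. LIN28A and DNMT3B of this list were lower DEGs in both fractions, while POU5F1 was at 0 in all 12 libraries. Glial markers summed to at most 3.26 CPM in GFP-positive and 43.3 CPM in GFP-negative libraries. Summed neuron markers lay between 11400 and 14900 CPM in control and between 5340 and 7120 CPM in treated GFP-positive libraries. In GFP-negative libraries they lay between 6090 and 6750 CPM in controls and between 3530 and 4500 CPM in treated cells. TUBB3 made up most of these sums, and 2 of 5 neuron markers were lower DEGs in GFP-positive and 0 of 5 in GFP-negative cells.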

How the data were processed

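The sample labels gave treatment, sort fraction and replicate number for 12 libraries in 4 groups of 3. HISAT2 was used by the authors to map reverse-strand, single-end reads on hg38 with Ensembl 103 genes, and the submitters' processing notes name featureCounts, whose version and strand setting are not given in the sources used here. They deposited raw counts per gene, which were used as such, and 0 of the per-sample columns were left unused. The table held no columns of the authors' own comparisons.

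Counts were scaled by TMM and tested with edgeR 4.0.16 in R 4.3.3 (quasi-likelihood F-test), after filterByExpr with a minimum count of 10 and a minimum total of 15. Benjamini-Hochberg adjustment covered every tested gene, and a DEG needed an adjusted p below 0.05 together with a minimum fold of 2. The contrasts were treatment within each fraction, fraction within the controls, and the interaction of both, which had no minimum fold. For the members, only the GFP-negative comparison was tested. Exact permutation of 3 against 3 libraries stops at p = 0.1 and was not run, and p-values measure the spread between independent thaws of the same line.

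The members and lists were chosen with earlier results of these data known. Named genes are the members, ISL1, their close relatives and chromosomal neighbours, and the 3 nearest genes per member. The rule also takes up to 4 of the largest GFP-positive DEGs of at least 1 CPM per list. Markers that lead a list or are absent, and up to 3 genes called against their list, complete it. MNX1, TH, INSM1, HAND2 and BRINP3 were named outside this rule, and others are marked or stand in a count. Some genes that the rule names are not reported here, and list counts, medians and sums still include them. GENCODE 44 on hg38, a later release than the authors', gave positions and transcript lengths, with 25763 of the 28278 genes matched by symbol. A floor of 3 counts per library and the exact 95% interval cover counting error only.

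Alternatives were DESeq2 1.42.0, RLE scaling, library size alone, dropping the filter, a minimum of 10 counts in each library, a fit of all 12 libraries, a replicate block, a pseudocount of 1 and each library left out in turn. Fits were tested on simulated counts. Python 3.11.15 and matplotlib 3.10.9 drew the figures.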

Additional observations from a re-analysis of the deposited data

Results flagged for a closer look

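The treatment response differed between the GFP-positive and GFP-negative fractions for 7 of the genes named in the text that are not members (edgeR interaction, adjusted over 16226 genes, of which 355 or 2.19% had an adjusted p under 0.05). All 7 kept an adjusted p under 0.05 in DESeq2 and with a block for the culture that the fractions share. Each value below is the GFP-positive minus the GFP-negative log2 fold change, from the fit without that block. TBX2-AS1 stood at −2.67 (adjusted p = 0.0325), lower in 3 of 3 treated than control libraries in GFP-positive cells. The adjusted p rose above 0.05 in 8 of 12 fits with 1 library left out, up to 0.114. Reads of TBX2-AS1 and TBX2 may not be told apart, and TBX2 was chosen by its fall in GFP-positive cells. This p-value may therefore rest in part on the values that chose TBX2. NRXN3, the nearest gene to TBX2, stood at −2.02 (adjusted p = 0.013). Its adjusted p-values were up to 0.0804 without treated GFP-positive replicate 1, treated GFP-positive replicate 3 or treated GFP-negative replicate 2. NRXN3 was picked for its likeness to TBX2 over these same libraries. Its p-values follow in part from that choice and are no independent support. INPPL1, which overlaps the end of PHOX2A, stood at −0.962 (adjusted p = 0.025), and at −0.70 (0.114) with library size alone; its adjusted p was above 0.05 in 8 of 12 fits with 1 library left out, up to 0.143. MNX1 stood at −1.49 (adjusted p = 0.0412), and at −1.24 (0.0878) with library size alone; its adjusted p was above 0.05 in 10 of 12 fits with 1 library left out, up to 0.145. COL1A2, a collagen of the mesenchyme list, stood at −2.73 (adjusted p = 4.04e-05) and kept its call in each of the 12.

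RUNX1, a factor of the sensory neuron list named after its values were seen, gave −3.03 (adjusted p = 8.17e-05). It went from 35.1, 33.2 and 44.9 to 7.74, 6.64 and 11.6 CPM in GFP-positive cells and from 9.52, 9.81 and 12.7 to 19.6, 21.8 and 18.6 CPM in GFP-negative cells, so all treated libraries were below the controls in the former and above them in the latter. ID1, a BMP target also named after its values were seen, gave 1.99 (adjusted p = 0.00995), from a log2 fold change of −0.80 in GFP-positive and −2.88 in GFP-negative cells. Both kept an adjusted p under 0.05 in each of the 12 fits with 1 library left out, with highest values of 0.00197 and 0.0444.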

How the results depend on the processing

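In GFP-negative cells NKX6-3, PHOX2A and TBX3 kept their side of the threshold under every alternative that could fit them; TBX2 kept its call under DESeq2, both other scalings, both other filters and the fit of all 12 libraries, and ranged from −1.24 to −0.94 with 1 library left out. NKX6-3 and TBX3 had under 10 counts in some library and gave no value under the stricter filter. Library size alone moved the median of all genes in GFP-positive cells from 0.03 to 0.14 and the split of higher and lower DEGs from 1959 and 1716 to 2315 and 1397; the members' direction held. The counts of genes with an interaction were 157 higher and 198 lower, against 411 and 378 in DESeq2 and 266 and 84 with library size alone (median of all genes 0.20 against −0.05), and ranged from 68 to 212 higher and 47 to 202 lower with 1 library left out. The cause was not tested. Signs turned for uncalled neighbours: BCAS3 in GFP-positive cells at 0.088 with library size alone (−0.149 to 0.067 with 1 library left out), MED13L at −0.00814 in the fit of all 12 libraries (−0.12 to 0.26 in GFP-positive and −0.27 to 0.70 in GFP-negative cells with 1 left out), DPY19L1 in GFP-positive cells (−0.0253 to 0.21) and, for a marker, MNX1 in GFP-negative cells (−0.0276 to 0.223).

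With the replicate block, TBX2 in GFP-negative cells stood at −1.09 (adjusted p = 0.0415), TBX3 at −0.63 (0.665), NKX6-3 at −5.97 (5.46e-04) and PHOX2A at −2.99 (1.89e-04), so no call of a member changed. Deviations of control and treated libraries with the same number correlated at −0.0467, 0.276 and 0.0297 in GFP-negative and −0.0165, 0.101 and 0.134 in GFP-positive cells over 16226 genes. With 3 libraries per group these correlations cannot tell whether control and treated libraries of the same number shared a thaw. The calls of HTR3B and CDKN2A in GFP-negative and SCRIB in GFP-positive cells were lost under the replicate block. A culture block, which joins the fractions of 1 culture, gave 519 higher and 745 lower interaction genes.

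Depth limits TBX20 and TBX3 in GFP-negative cells and all members but PHOX2A and TBX2 in treated cells, where single libraries hold 0 to 20 counts.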
